A study of Homo sapiens with 5 samples.

Results

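Transcripts of the p53 target genes for cell cycle arrest and DNA repair were followed in LNCaP cells, a human prostate cancer line, exposed to celastrol. The genes were taken by the symbols MDM2, CDKN1A, GADD45A, CCNG1, ZMAT3, DDB2, XPC, FDXR and TP53I3 in the platform annotation. Of these 9 genes, 8 were represented, by 11 of the 22215 probe sets on the array. MDM2 had 4 probe sets and the other 7 genes had 1 each, and FDXR was not analysed here. Cells grown in RPMI with serum received 1.25 µM celastrol, a triterpenoid from thunder god vine, or its solvent DMSO, each for 6 h, and total RNA was extracted with Trizol. There were 2 celastrol arrays and 3 DMSO arrays, called biological replicates in the labels. The comparison sets both celastrol arrays against DMSO replicates 1 and 2, and DMSO replicate 3 is given apart.

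p53 is a transcription factor that is held at a low level by the ubiquitin ligase MDM2 and accumulates when DNA is damaged or protein and nucleolar homeostasis is disturbed. It then activates CDKN1A, which encodes the cyclin-dependent kinase inhibitor p21, together with genes that halt the cell cycle, repair DNA or feed back on p53 itself. MDM2 is such a feedback gene, since the protein it encodes is both a target and an inhibitor of p53. LNCaP cells are generally described as retaining functional p53.

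Promoter windows from RefSeq (GRCh38.p14) were found for 7 of the 8 represented genes, and none for GADD45A. There were 13 windows in all, each of 300 bases from 250 before an annotated start to 50 after it. Windows of the same gene can overlap, as those of MDM2 and of CCNG1 do, and are not separate cases. A p53 site was searched as 2 copies of the 10-base p53 half-site consensus, separated by at most 1 base, with at most 2 mismatches in all, a rule set after the windows had been read. The consensus is its own reverse complement, so both strands were covered. Such a site lay in 3 of the 13 windows, from 2 genes, MDM2 and DDB2, and in 1.34% of 35116 human promoter windows. The MDM2 windows with a site overlap and hold the same one, which has 2 mismatches, the most that the rule allows. The windows below are shown to set the best-matching sites of feedback and repair genes beside the promoter of CDKN1A, the gene with the largest difference. In the CDKN1A window no such site was found and the capitals mark the 4 copies of GGGCGG on the strand shown or its complement, of which a pair overlaps, a motif held by 45.0% of all windows. In the other windows the capitals mark the p53 half-sites. The MDM2 window belongs to the inner start of the gene, and its site begins at position -101 with the start as 0. The DDB2 site begins at position 5, has 0 mismatches and a spacer of 1 base.
CDKN1A, chr6:36678464-36678763, plus strand: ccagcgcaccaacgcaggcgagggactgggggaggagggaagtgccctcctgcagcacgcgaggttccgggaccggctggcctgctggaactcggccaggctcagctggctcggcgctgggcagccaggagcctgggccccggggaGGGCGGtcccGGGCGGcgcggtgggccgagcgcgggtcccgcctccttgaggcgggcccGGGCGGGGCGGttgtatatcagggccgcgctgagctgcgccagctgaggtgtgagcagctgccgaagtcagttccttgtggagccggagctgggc
MDM2, chr12:68808774-68809073, plus strand: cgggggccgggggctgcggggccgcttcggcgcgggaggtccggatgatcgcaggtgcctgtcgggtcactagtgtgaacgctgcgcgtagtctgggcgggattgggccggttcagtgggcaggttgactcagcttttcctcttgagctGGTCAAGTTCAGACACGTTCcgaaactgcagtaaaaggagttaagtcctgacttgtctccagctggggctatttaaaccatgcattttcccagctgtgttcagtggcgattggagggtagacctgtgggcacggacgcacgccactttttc
DDB2, chr11:47214724-47215023, plus strand: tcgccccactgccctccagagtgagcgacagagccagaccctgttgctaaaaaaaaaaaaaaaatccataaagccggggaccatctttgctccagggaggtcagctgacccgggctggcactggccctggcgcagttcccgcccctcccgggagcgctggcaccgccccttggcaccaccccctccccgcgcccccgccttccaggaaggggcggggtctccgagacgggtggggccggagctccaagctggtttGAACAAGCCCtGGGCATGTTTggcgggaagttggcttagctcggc
The ATF4 composite motif TGATGNAA, searched on both strands, was found in 0 of the 13 windows and in 3.62% of all windows. The heat shock core motif GAANNTTC was found in 1 of the 13, that of TP53I3, and in 6.77% of all windows. A match or its absence describes these letters in these windows and nothing about binding of a factor.

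DMSO replicate 3 stood apart from the other arrays. Its levels correlated with those of each other array at a Pearson r of 0.843 to 0.844 over probe sets, whereas the other 4 arrays correlated at 0.994 to 0.998. Relative to the mean of DMSO replicates 1 and 2 it was over 2-fold lower in all 9 luminal prostate markers measured, of 12 listed, and over 2-fold higher in 9 of the 11 leukocyte markers measured. KLK3, the gene of prostate-specific antigen, stood at 4.56 on it in log2(intensity + 1), against 10.9 and 10.7 on DMSO replicates 1 and 2, and the B cell gene MS4A1 at 10.9 against 4.52 on both. On the 4 compared arrays the luminal list had a median level of 9.69 and 9.67 with celastrol and 9.71 and 9.76 with DMSO, and the leukocyte list one of 4.55 and 4.48 with celastrol and 4.44 and 4.44 with DMSO. Within the luminal list 6 of the 9 markers had both celastrol arrays below both DMSO arrays, against 19.4% of all genes. KLK3 stood at 10.2 and 10.1 with celastrol, against 10.9 and 10.7 with DMSO, a change of -0.65. FOLH1, the other luminal check gene, had a change of -0.08 (limma adjusted p = 0.511). The protease gene TMPRSS2 had the lowest change of the list, -1.08 (limma adjusted p = 0.0654, and 0.0387 with dim probe sets set aside). The median change of the list was -0.12, with 3 of the 9 markers above 0 and 6 below. The part of these marker differences in the results below was not tested. MS4A1 and CD79A, defining B cell markers, stood at 4.19 to 4.52 on these arrays, below the median level of 4.91 over their probe sets. The lowest level on any of the 5 arrays was 3.53. HMOX1, the heme oxygenase gene, and HSPA1B, the other check of the treatment, were 61.4-fold and 5.15-fold higher with celastrol (limma adjusted p = 0.0622 for both).

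Celastrol cells held more CDKN1A and GADD45A transcript than DMSO cells, by 1.59-fold and 1.48-fold, and no probe set of the other 6 genes stood more than 1.21-fold higher. None of these differences passed the threshold once all probe sets were counted. By limma, with p adjusted over the whole array by the Benjamini-Hochberg method, 0 of the 11 probe sets had an adjusted p under 0.05, against 0.009% of all probe sets. With the dimmest 40% of the array set aside, 0 of the 9 kept did, against 0.908%. The smallest adjusted p of these genes was 0.194 with all probe sets in the fit and 0.125 with dim ones set aside, both that of GADD45A. Without adjustment, limma gave a p under 0.05 to 3 of the 11 on the higher side, against 5.6% of all probe sets, and to 0 on the lower side, against 7.59%. Both celastrol arrays lay above both DMSO arrays for 7 of the 11, against 14.5% of all probe sets, and below them for 1, against 17.6%. A change of at least 0.5 on the log2 scale was found for 2 of the 11, against 0.986% of all probe sets, and one of at most -0.5 for 0, against 1.08%. Over the 11 probe sets the median change was 0.15, and it was 0.00 over all probe sets. With 1 probe set a gene the median of the 8 genes was 0.18, and it was 0.11 without celastrol replicate 1 and 0.10 with DMSO replicate 3 added. With so few arrays an adjusted p above the threshold does not show that a transcript was unaffected, and in bulk RNA fewer cells of a type and less RNA per cell cannot be told apart. The 4 MDM2 probe sets share a gene and are not separate cases.

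**Figure D1:**
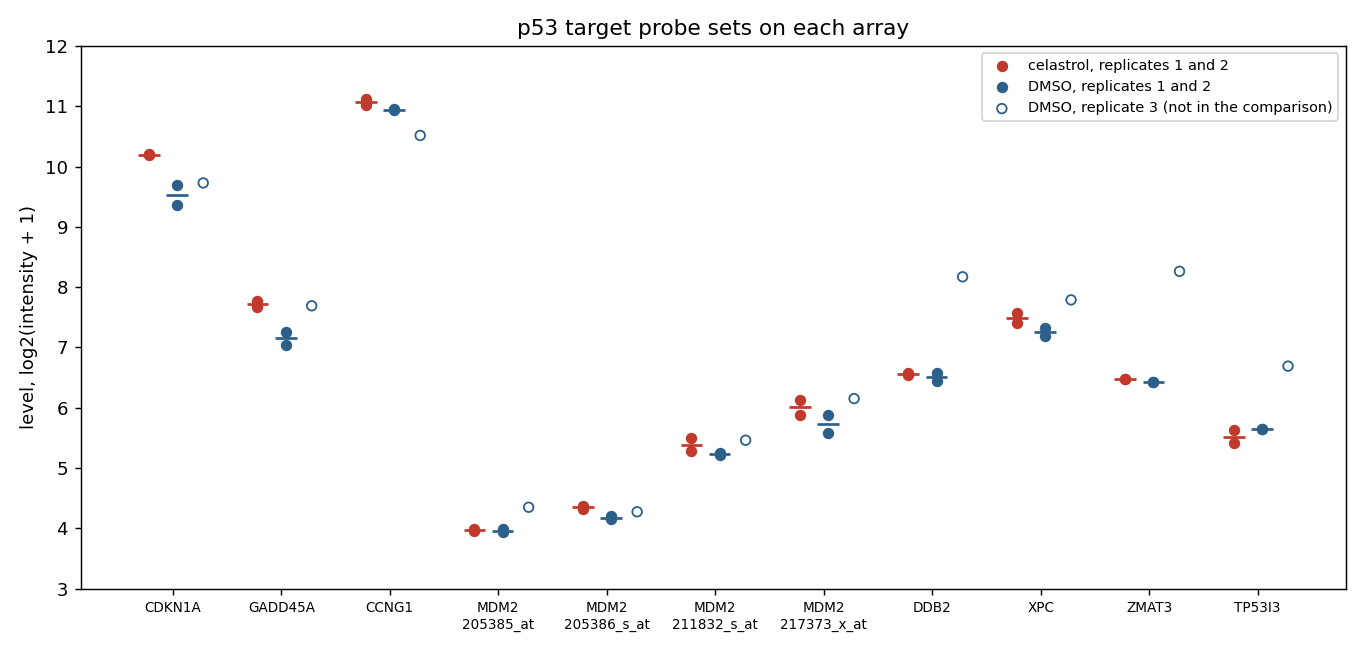
Level of each p53 target probe set, as log2(intensity + 1), on every array, with celastrol in red on the left, DMSO replicates 1 and 2 in blue beside it and DMSO replicate 3 as an open circle; short bars are the means of 2 arrays. CDKN1A and GADD45A show a visible gap between celastrol and DMSO, while DDB2, ZMAT3 and TP53I3 are set apart by the open circle.

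CDKN1A, which encodes the p21 inhibitor of cyclin-dependent kinases, had an intensity of 1183 and 1165 with celastrol, against 658 and 829 with DMSO. The celastrol arrays were close to each other and above both DMSO arrays, which themselves lay 0.33 apart on the log2 scale. The change was 0.67 in log2(intensity + 1), with a standard error of 0.138 and a 95% interval of 1.17-fold to 2.16-fold (limma adjusted p = 0.239). A higher change was found for 134 of all probe sets, 0.603% of them. The change ran from 0.50 to 0.83 when 1 of the 4 arrays was left out, the lowest without DMSO replicate 1 and the highest without DMSO replicate 2.

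GADD45A, a stress sensor that binds PCNA and the CDK1 complex and links to p38 signalling, had an intensity of 217 and 203 with celastrol, against 131 and 153 with DMSO. The groups did not overlap, and, as for CDKN1A, DMSO replicate 2 was the higher of both DMSO arrays. The change was 0.57 (SE 0.0982) with a 95% interval of 1.19-fold to 1.84-fold, and limma gave an adjusted p of 0.194 over all probe sets. It was higher than the change of all but 183 probe sets. Without 1 of the 4 arrays it ran from 0.46 to 0.67.

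CCNG1, which encodes cyclin G1, an atypical cyclin that recruits a phosphatase to MDM2, had an intensity of 2217 and 2064 with celastrol, against 1989.7 and 1953 with DMSO. The groups were separate but close. The change was 0.12 (SE 0.0473, limma adjusted p = 0.498), with a 95% interval of 0.977-fold to 1.21-fold. That interval overlaps the one of CDKN1A, 1.17-fold to 2.16-fold, and the difference between their changes was not tested.

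MDM2 showed small differences on all 4 probe sets, of which a pair gave signals near the floor of the array. Probe set 205386_s_at had an intensity of 19.6 and 19.0 with celastrol, against 16.9 and 17.4 with DMSO, a signal above that of 24.5% of probe sets. Its groups were apart by more than the spread within either, with a change of 0.17 (SE 0.0301, limma adjusted p = 0.203), a small step on a signal near the floor. Probe set 205385_at had 14.8 and 14.6 with celastrol, against 14.8 and 14.4 with DMSO. Its signal exceeded that of 4.53% of probe sets, its change was 0.01 (SE 0.0265), and the groups overlapped through a value shared by the first array of each. Probe set 211832_s_at had 37.7 and 44.3 with celastrol, against 37.2 and 36.2 with DMSO, a change of 0.15 (SE 0.0968). One celastrol array barely exceeded the DMSO arrays there, so the separation rests on celastrol replicate 2, and the change was 0.04 without it. Probe set 217373_x_at, whose suffix marks probes that may match other transcripts, had 69.1 and 57.9 with celastrol, against 57.9 and 46.9 with DMSO. The change was 0.27 (SE 0.161), the widest standard error of the group, and both groups held the value 57.9. It was 0.13 without DMSO replicate 2 and 0.42 without DMSO replicate 1. All 4 MDM2 changes were above 0, but the limma adjusted p lay between 0.203 and 0.871, and the 95% intervals of 3 of them include 0. The sign of 205385_at turned under some other settings.

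Of the repair genes, XPC showed the larger difference and DDB2 hardly any. DDB2, the subunit of the damage-recognition complex that binds ultraviolet lesions in chromatin, had an intensity of 94.0 and 92.1 with celastrol, against 85.5 and 94.0 with DMSO. The groups overlapped through an identical value, and the change was 0.05 (SE 0.0593), with a 95% interval of 0.909-fold to 1.18-fold. XPC, which detects helix distortion and starts global nucleotide excision repair, had 190.0 and 169 with celastrol, against 159.6 and 145 with DMSO. Both celastrol arrays were above both DMSO arrays, by less than the gap between the celastrol arrays themselves. The XPC change was 0.23 (SE 0.0900, limma adjusted p = 0.475), with a 95% interval of 0.963-fold to 1.44-fold.

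ZMAT3, an RNA-binding zinc finger protein gene that acts downstream of p53 on splicing and mRNA stability, had an intensity of 88.2 on both celastrol arrays, against 84.9 and 85.2 with DMSO. The values were tied within celastrol and nearly so within DMSO, so that a change of only 0.05 (SE 0.0183, limma adjusted p = 0.439) separated the groups. Identical values are common in these data, at 17.1% to 19.3% of probe sets in pairs of the 4 arrays, and a tie can make the spread look smaller than it was. TP53I3, a quinone oxidoreductase gene that p53 induces, had 48.4 and 41.6 with celastrol, against 49.1 and 49.3 with DMSO. It was the one gene of the 8 with a change below 0, at -0.13 (SE 0.0896, limma adjusted p = 0.622). The distance rests on celastrol replicate 2, without which the change was -0.02.

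**Figure D2:**
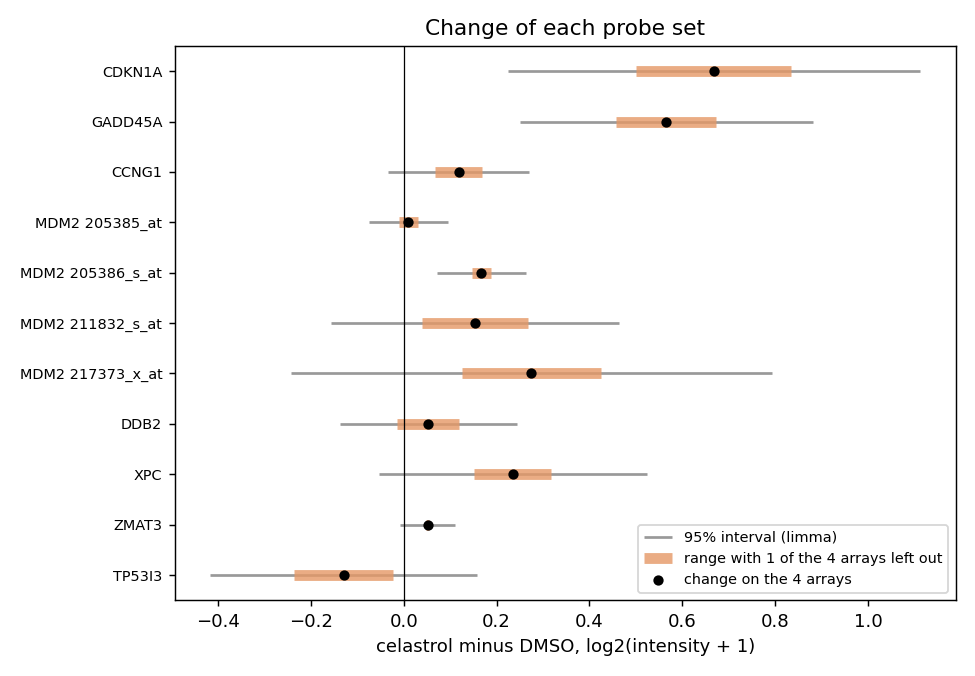
Change of each probe set, celastrol minus DMSO replicates 1 and 2 in log2(intensity + 1), as a black point with its 95% limma interval in grey and the range with 1 of the 4 arrays left out in orange. The intervals of CDKN1A, GADD45A and MDM2 probe set 205386_s_at lie above 0, and those of the other 8 probe sets include it.

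Set against the whole array, CDKN1A and GADD45A lay among the higher changes, with 134 and 183 probe sets higher still. The remaining probe sets lay closer to 0. GADD45A ranked 8 among all genes in likeness to CDKN1A, by the root mean square difference of the log2 deviations from the DMSO mean over the 4 arrays, which was 0.0871, while CDKN1A ranked 34 in likeness to GADD45A. The 3 genes nearest to CDKN1A were STX3, RNF103 and HSPA1L, at 0.0439, 0.0685 and 0.0687. The 3 nearest to GADD45A were CARS1, a cysteinyl-tRNA synthetase gene, ACSL1, an acyl-CoA synthetase gene, and MKNK2, a kinase gene, at 0.0140, 0.0344 and 0.0386. These distances compare 4 values that share their arrays, and whether such likeness exceeds that of unrelated genes was not tested.

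**Figure D3:**
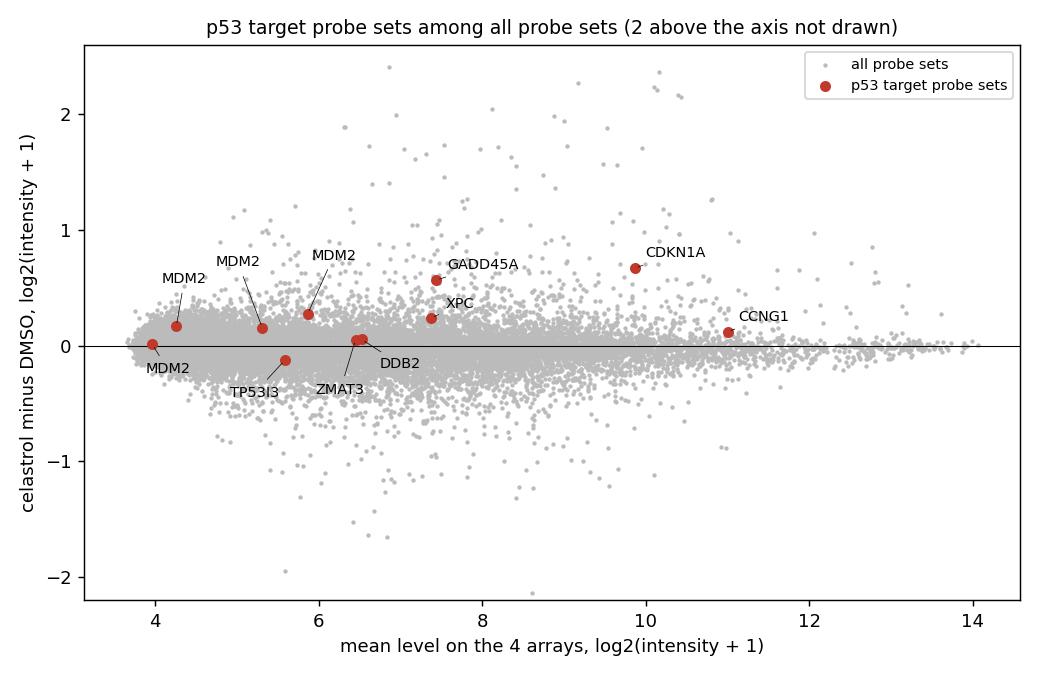
Change (celastrol minus DMSO replicates 1 and 2) against mean level on the 4 arrays, both from log2(intensity + 1), for all 22215 probe sets in grey and the 11 p53 target probe sets in red. CDKN1A at 0.67 and GADD45A at 0.57 lie above most probe sets. Of the 4 MDM2 probe sets, 3 lie in the dense cloud at low to middle levels with changes of 0.01 to 0.17.

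Other p53 targets lay on both sides of 0. Of 30 listed, 25 were measured, each by its brightest probe set, with 17 changes above 0, 8 below and a median of 0.11. Over all 12165 genes 5862 changes were above 0 and 6066 below, with a median of 0.00. For the other p53 targets the median was 0.04 without DMSO replicate 2 and 0.18 without DMSO replicate 1. Both celastrol arrays lay above both DMSO arrays for 11 of them, against 15% of all genes, and below for 4, against 19.4%. None passed the threshold over the whole array, against 0.0164% of all genes, and 7 of the 25 had an unadjusted limma p under 0.05, against 15.1% of all genes. With the dimmest 40% set aside, 1 gene rose and 1 fell, where 1.04% of all genes were called. GDF15, a stress-induced cytokine gene, stood at 11.5 on both celastrol arrays, against 9.30 and 9.43 with DMSO in log2(intensity + 1), a 4.43-fold difference (limma adjusted p = 0.0622, and 0.0315 with dim probe sets set aside). SESN1, a p53-induced inhibitor of mTORC1 signalling, stood at 7.92 and 7.76 with celastrol, against 9.04 and 9.07 with DMSO, a change of -1.22 (limma adjusted p = 0.0853, and 0.0481 with dim probe sets set aside). The 2 named targets with the largest changes thus went opposite ways. TNFRSF10B, a death receptor gene, had a change of 0.25 and PMAIP1, the NOXA gene, one of 0.43. CCNG2, which encodes a cyclin related to CCNG1, had a change of -0.42 and TP53I11 one of -0.21.

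Regulators of p53 differed little. Of 16 measured, 9 changes were above 0 and 7 below, against 5862 and 6066 of all 12165 genes, with a median of 0.03. Their groups were separate on the higher side for 4, against 15% of all genes, and on the lower side for 1, against 19.4%. The median ran from -0.0020 without celastrol replicate 1 to 0.05 without celastrol replicate 2. TP53BP2, which encodes a p53-binding protein, had a change of 0.24 (limma adjusted p = 0.0987) and the acetyltransferase gene CREBBP one of 0.27. USP7, a deubiquitinase of MDM2, had 0.10, and RPL11, a ribosomal protein gene whose product binds MDM2, had -0.10. Among 7 measured GADD45 relatives and partners 3 changes were above 0 and 4 below. Their groups were separate for 1 on the higher side, against 15% of all genes, and for 2 on the lower, against 19.4%. GADD45G had a change of 0.31 at a level among the dimmest 40% of the array, and CDK1 and PCNA had changes of -0.22 and -0.15.

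Genes of the G1/S transition, where p21 inhibits cyclin-dependent kinases, mostly lay below 0. Of 13 measured cyclins, kinases, inhibitors, pocket proteins and E2F1, 12 had changes below 0, against 6066 of all 12165 genes, with a median of -0.18. In 8 of the 13 both celastrol arrays lay below both DMSO arrays, against 19.4% of all genes. Several of the 12 were close to 0, such as CDK4 at -0.02, CDKN1C at -0.02 and CDKN2D at -0.02, named after their values were seen. None passed the threshold in the test over all probe sets or with dim probe sets set aside, while 5 had an unadjusted limma p under 0.05, against 15.1% of all genes. When single arrays were left out, the median of these genes ran from -0.23 without DMSO replicate 2 to -0.12 without DMSO replicate 1. With DMSO replicate 3 added, an array outside the comparison, it was -0.05. CCNA2, the cyclin A gene, stood at 7.18 and 7.04 with celastrol, against 7.60 and 7.54 with DMSO, a change of -0.46 (SE 0.0657, limma adjusted p = 0.169). CCNE2, a cyclin E gene, had a change of -0.34 and RB1, the retinoblastoma gene, one of -0.18. Among 22 measured genes of nucleotide excision repair, the pathway of DDB2 and XPC, 7 changes were above 0 and 15 below. Those counts were 5862 and 6066 over all 12165 genes, and the median of the 22 genes was -0.06. Separate groups were found for 3 on the higher side, against 15% of all genes, and for 8 on the lower side, against 19.4%. The median of these genes was -0.02 without celastrol replicate 2. RAD23B, which stabilises XPC, had a change of 0.09, XPA 0.26 and GTF2H3 0.04. ERCC1, a nuclease subunit gene, had a change of -0.26, GTF2H4 -0.22 and RPA2 -0.55 (limma adjusted p = 0.258). The median of 5 measured genes for iron-sulfur and redox partners of FDXR was -0.09, which became -0.03 without celastrol replicate 2, -0.14 without celastrol replicate 1 and 0.03 with DMSO replicate 3 added. In that list NFS1, the cysteine desulfurase gene, had a change of -0.54 and ISCA1 one of -0.27.

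**Figure D4:**
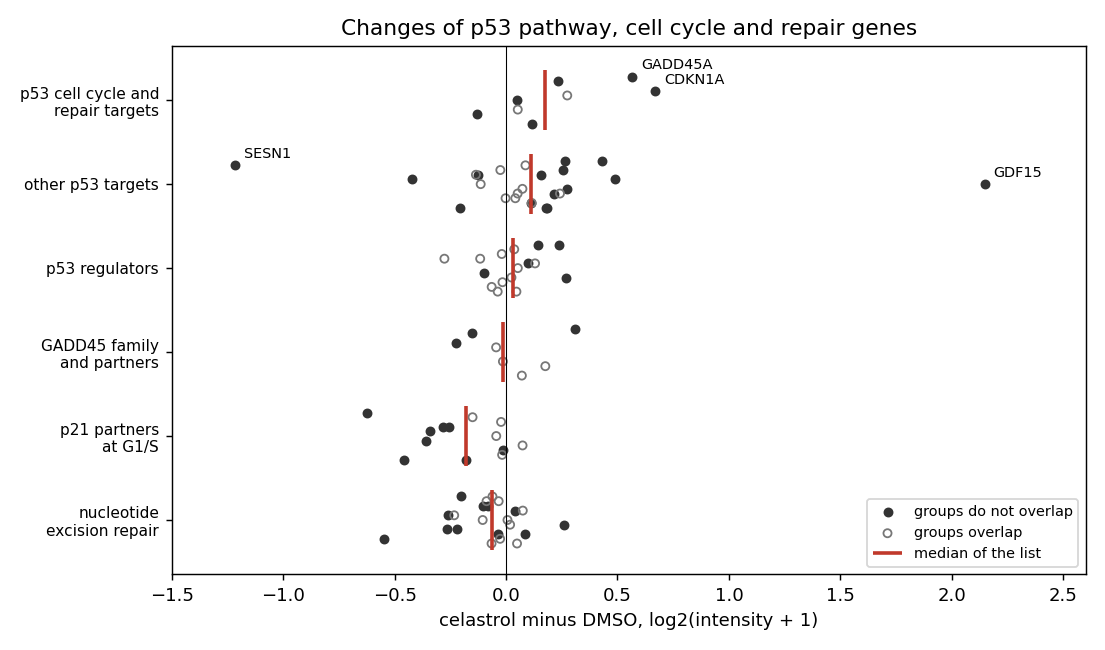
Change of each measured gene (celastrol minus DMSO replicates 1 and 2, log2(intensity + 1)) in the p53 target group and 5 related lists, filled where the groups do not overlap and open where they do, with a red bar at the median of the list. The median was 0.18 for the 8 p53 cell cycle and repair targets and -0.18 for the 13 G1/S genes, and GDF15 and SESN1 stand far out in opposite directions.

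On DMSO replicate 3 the same genes stood at other levels. It was above both other DMSO arrays for 10 of the 11 probe sets and below them for CCNG1, which had an intensity of 1462 there. The share of all probe sets above both was not counted, so these 10 cannot be called unusual. DDB2 and ZMAT3 had 287 and 306 there, more than on any of the 4 compared arrays, and TP53I3 had 102. CDKN1A had 847 and GADD45A 206 on it, so that for GADD45A this DMSO array lay inside the range of the celastrol arrays. With this array added to DMSO the change of CDKN1A was 0.60 and that of GADD45A 0.39, and the limma adjusted p of both was 0.876.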

How the data were processed

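Total RNA was labelled as biotinylated cRNA for Affymetrix arrays, per the labels' protocols. The authors deposited linear intensities, 1 for each probe set on an array, summarised with RMA per the submitters' processing notes (the version is not given in the sources used here). Groups follow the titles. Levels are log2(intensity + 1) with no further normalization, and changes are celastrol minus DMSO, which understates changes of dim genes. limma 3.58.1 (R 4.3.3; lmFit, eBayes, two-sided) was fitted to 4 arrays over all 22215 probe sets, with Benjamini-Hochberg adjustment and a threshold of 0.05, and was tested on simulated data. A gene in a list is its brightest probe set naming it alone. The members, lists and the choice of 4 arrays were made with earlier results of these data known. From each list other than the marker lists, up to 3 genes a direction with separate groups and smallest p are named, beside fixed check genes. GDF15 and SESN1 fall under that rule, and TMPRSS2 is named outside it, as the lowest change of the luminal list. Alternatives covered samples, filter, normalization, offset and variance model. Replicate differences of both groups were hardly correlated over probe sets (r = -0.0197), and no pairing was fitted in the main comparison. Such a correlation does not show that arrays of equal number were unpaired in the experiment. The few arrays limit the precision. List genes without a named probe set were not analysed here.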

Additional observations from a re-analysis of the deposited data

Results flagged for a closer look

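Transcripts of 3 p53 targets were over 2-fold higher on DMSO replicate 3, an array outside the comparison, than on both other DMSO arrays, as were 7.13% of all probe sets. In log2(intensity + 1), ZMAT3 stood at 8.26 on it, against 6.42 and 6.43 on DMSO replicates 1 and 2. DDB2 stood at 8.17, against 6.44 and 6.57. TP53I3 stood at 6.69, against 5.65 on both. Luminal prostate markers had a median level of 4.56 on DMSO replicate 3, against 9.71 and 9.76, and leukocyte markers one of 9.14, against 4.44 and 4.44. The part of that difference in the 3 values was not tested.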

How the results depend on the processing

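Under 14 other settings, 0 of the 11 probe sets passed the threshold. The adjusted p ran from 0.0666 to 0.876 for CDKN1A and from 0.0536 to 0.876 for GADD45A, lowest with dim probe sets left out after quantile normalization (chosen after seeing the data) and highest on all 5 arrays. Of 150 changes of single probe sets, 142 kept their sign. That count includes settings that could not turn a sign. The replicate block, the dim filter and both variance models leave the change of a probe set as it was. On all 5 arrays the change was -0.12 for MDM2 probe set 205385_at, -0.56 for ZMAT3 and -0.50 for DDB2. For 205385_at it was also -0.0074 under quantile normalization and -0.0102 under cyclic loess. With 1 array left out it ran from -0.0111 to 0.0300 for 205385_at and from -0.0144 to 0.12 for DDB2. The cause was not tested. The count over all probe sets was 2, and it was 0 on all 5 arrays, 0 with any 1 array left out, 121 with the dimmest 40% left out, 197 after quantile normalization, 139 after median centring, 163 after cyclic loess, 43 with log2(value + 16), 1 with a variance trend, 3 with robust variance and 389 with dim probe sets left out after quantile normalization. Separate groups were found for 8 of the 11 probe sets, for 4 on all 5 arrays (8.14% of all probe sets higher and 7.46% lower there) and for 8 to 10 with 1 array left out (26.7% to 28.8% higher and 29.0% to 30.8% lower). After median centring 8 were higher and 1 lower, where 40.6% of all probe sets were higher and 14.9% lower, so the background of that count moves with the scaling. With the replicate number as a replicate block 0 probe sets passed, and CDKN1A had an adjusted p of 0.389. This pairing changed no call of these genes, though the unadjusted limma p fell for some and rose for others.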
